A study of Mus musculus with 2 samples.

Results

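The T-box genes Tbx2, Tbx3, Tbx4, Tbx5, Tbx15 and Tbx18 were followed through single-cell RNA sequencing data of the mouse genital tubercle, the embryonic outgrowth that becomes the penis or the clitoris. They were chosen by symbol, and all 6 were found among the 31053 genes of the deposited feature list. The male library came from 3 pooled male embryos and the female library from 3 pooled female embryos, all wild-type C57BL/6 at embryonic day 14.5 (Theiler stage 22), sexed by genotyping and taken from 2 litters. The tubercles were dissociated with collagenase XI, and each pool was loaded as 1 droplet sample with a 3′ kit, so that embryos of a pool cannot be told apart. Since each sex is represented by a single library, no comparison could be tested against replicates. Intervals are at the 95% level, exact apart from those of co-detection ratios, and cover the error of counting alone.

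Barcodes were taken as cells when they held 2000 or more unique molecular identifiers (UMIs) and 500 or more genes, with mitochondrial UMIs making up no more than 10%, which left 17254 male and 18711 female cells. The median male cell had 5169.5 UMIs and 2105 genes, the median female cell 5242 UMIs and 2162 genes. The libraries held 130105692 and 144515562 UMIs in all, and 82 barcodes of cells were shared between them. Mesenchyme cells made up 94.5% of male and 96.1% of female cells. They came from clusters that no other marker list named and that expressed mesenchyme markers, a list of Pdgfra, collagen and other genes. The T-box genes were left out of the genes used for clustering, so that their levels did not define the cell classes or the mesenchyme clusters in which they were measured. A level is the number of UMIs of a gene per 1000000 UMIs of the cells summed (CPM).

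T-box factors bind DNA through a shared domain, the T-box, and their dosage matters in many embryonic organs. Tbx2 and Tbx3 encode close relatives that act mainly as repressors, and loss of one human TBX3 copy causes ulnar-mammary syndrome, in which the genitalia can be affected. Tbx4 and Tbx5 encode activators known from the outgrowth of the hindlimb and the forelimb. Tbx15 and Tbx18 encode repressors that recruit Groucho-type corepressors. Tbx15 is known from skeletal and skin patterning, and Tbx18 from the mesenchyme of the ureter, the epicardium and the somites.

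The genes lie at 4 places in the mm10 genome, as given by the GENCODE M21 annotation. Tbx2 (chromosome 11, 85832551 to 85841948, plus strand, 7 exons) is followed after a gap of 44473 bases by Tbx4 (85886422 to 85916097, plus strand, 8 exons). Tbx3 (chromosome 5, 119670669 to 119684724, plus strand, 7 exons) is followed after 147943 bases by Tbx5 (119832668 to 119885219, plus strand, 9 exons). Tbx15 lies on chromosome 3 (99240381 to 99354259, plus strand, 8 exons) and Tbx18 on chromosome 9 (87702800 to 87731260, minus strand, 8 exons). Each neighbouring pair thus joins 1 gene of the Tbx2 and Tbx3 kind to 1 of the Tbx4 and Tbx5 kind. Antisense genes overlap Tbx3 (Tbx3os1), Tbx15 (Gm43120) and Tbx18 (D030062O11Rik), and whether the counting used strand is not given in the sources used here.

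Because reads of close relatives could be confused, the coding sequences of Tbx2 and Tbx3 and of Tbx15 and Tbx18 were compared. Over the aligned positions, Tbx2 and Tbx3 were 69.5% identical, and Tbx15 and Tbx18 71.4%. The stretches that follow, 90 coding bases each and written 5′ to 3′ on the gene's own strand, hold the longest run shared by each pair, in capitals. They come from GENCODE M21 transcripts of the mm10 build.
Tbx2 (chr11:85833393-85833482, plus strand, within 1 exon): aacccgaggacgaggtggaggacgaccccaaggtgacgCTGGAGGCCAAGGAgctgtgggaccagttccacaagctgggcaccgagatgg
Tbx3 (chr5:119672296-119672385, plus strand, within 1 exon): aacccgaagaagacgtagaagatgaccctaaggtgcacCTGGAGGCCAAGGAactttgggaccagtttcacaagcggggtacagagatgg
Tbx15 (chr3:99313092-99314810, plus strand, across 2 exons): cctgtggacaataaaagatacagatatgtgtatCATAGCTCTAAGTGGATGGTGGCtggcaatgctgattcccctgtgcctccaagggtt
Tbx18 (chr9:87724407-87727386, minus strand, across 2 exons): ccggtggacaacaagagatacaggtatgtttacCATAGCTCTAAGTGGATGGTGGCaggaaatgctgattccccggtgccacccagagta
The shared runs were 14 bases long for Tbx2 and Tbx3 and 23 bases for Tbx15 and Tbx18. In the last 500 bases of the transcripts, where 3′ reads are expected to fall, the longest shared run was 10 bases for each pair. These are shorter than the runs in the coding sequence.

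In the mesenchyme all 6 genes were detected in both libraries. Tbx2 stood at 107 CPM (interval 105 to 109) in male cells and 102 CPM (100.5 to 104) in female cells, Tbx3 at 206 CPM in male cells and 207 CPM in female cells, and Tbx4 at 71.9 and 72.3 CPM. Tbx5 stood at 85.4 CPM in male cells and 100.4 CPM in female cells. Tbx15 and Tbx18 were the 2 genes whose levels differed most between the libraries, with 7.82 and 15.4 CPM for Tbx15 and 25.4 and 33.0 CPM for Tbx18, the male library given first in each pair. Because the counts come from the 3′ ends of transcripts, levels of different genes are not ranked here, and a ratio of the UMIs of 2 genes is given only beside the same ratio in other cells.

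Mesenchyme cells fell into 13 clusters, each named below by its leading genes, and marker genes placed 12 of them in 7 domains named Sim1/Agtr2, Foxd1/Sall3, Msx1/Msx2, Ogn/Foxf1, Scx/Sox9, Aldh1a2/Tcf21 and Rprm/Pcdh10. No marker list named the cluster led by Mecom and Postn, which was kept as an 8th domain. Some names were less clear, by the mean log2 fold of the markers. The cluster led by Gatm and Ezr had 1.35 for Sim1/Agtr2 and 0.98 for Rprm/Pcdh10. That led by Vegfd and Tfap2b had 1.43 for Msx1/Msx2 and 1.06 for Foxd1/Sall3. The Ogn/Foxf1 markers had 1.01 in the cluster named from them and 1.57 in the Aldh1a2/Tcf21 cluster. In every domain a gene's level was set against the rest of the mesenchyme of the same library, and a log2 ratio of 1 or more in both libraries was counted as past the fold. Of the 6 genes, 2 were past the fold upwards in any domain, against 12.5% of the 13389 genes whose mesenchyme counts summed to 100 or more. Both were in the Sim1/Agtr2 domain, where 3.29% of genes were past the fold. None of the 6 was past it upwards in the other domains, where the share of genes was 3.12% (Aldh1a2/Tcf21), 2.73% (Msx1/Msx2), 2.1% (Scx/Sox9), 1.11% (Foxd1/Sall3), 0.777% (Ogn/Foxf1), 0.739% (the Mecom and Postn cluster) and 0.523% (Rprm/Pcdh10). With at most 5% mitochondrial UMIs Tbx3 was past it too, in the Msx1/Msx2 domain (log2 1.15 in male cells and 1.09 in female cells), which made 3 genes.

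**Figure D1:**
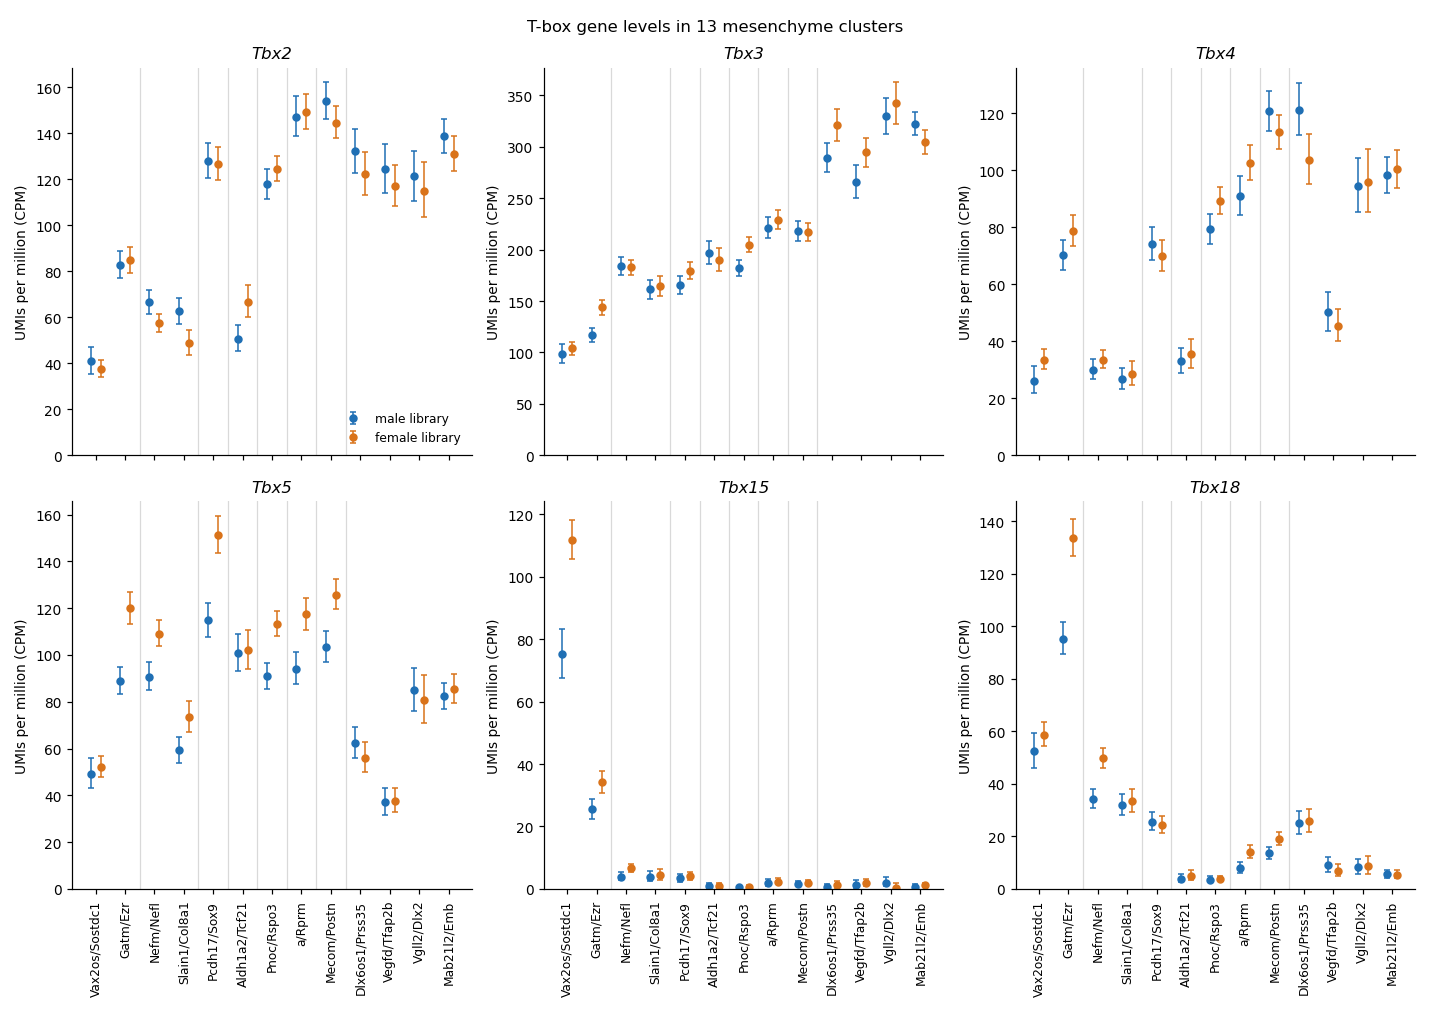
Level of each T-box gene (CPM, linear axis from 0) in 13 mesenchyme clusters, male library in blue on the left of each pair and female library in orange on the right, with exact 95% intervals for counting error. Grey lines separate the domains; Tbx15 is near 0 outside the 2 leftmost clusters, of the Sim1/Agtr2 domain, while Tbx3 is highest in the 4 rightmost clusters, of the Msx1/Msx2 domain.

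Tbx15 was concentrated in the Sim1/Agtr2 domain. It stood at 41.7 CPM in that domain in male cells and at 73.6 CPM in female cells, which gave log2 ratios over the rest of the mesenchyme of 4.45 (interval 4.198 to 4.71) and 4.85 (4.65 to 5.05). The 2145 male and 2857 female cells of the domain made up 13.2% and 15.9% of mesenchyme cells, and they held 79.2% (610 of 770) of male and 86.4% (1569 of 1815) of female Tbx15 UMIs. Within the domain, the cluster led by Vax2os, Sostdc1 and Sim1 had 75.2 CPM in male cells and 112 CPM in female cells. The cluster led by Gatm, Ezr and Pou3f3 had 25.5 and 34.1 CPM. These steps down from the first to the second cluster, and from the second to every other cluster, were larger than the counting intervals in both libraries.

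Outside that domain Tbx15 was low. The Foxd1/Sall3 domain had 3.93 CPM in male cells and 5.87 CPM in female cells, and the Scx/Sox9 domain 3.38 and 4.06 CPM. The lowest levels were 0.460 CPM in the Ogn/Foxf1 domain of the male library and 0.318 CPM in the cluster led by Vgll2, Dlx2 and Ndufa4l2 of the female library, the last from 1 UMI. Male endothelial cells had 1.17 CPM and female ones 1.52 CPM, and barcodes of 10 to 100 UMIs, taken as free RNA, had 9.79 and 11.97 CPM. Levels at or below those of endothelial cells are read as background. Tbx15 was past the fold downwards in the other 7 domains, where 3.11% (Aldh1a2/Tcf21), 3.37% (Ogn/Foxf1), 3.59% (Foxd1/Sall3), 4.2% (Scx/Sox9), 4.5% (the Mecom and Postn cluster), 5.02% (Msx1/Msx2) and 6.86% (Rprm/Pcdh10) of genes were. The rest included the Sim1/Agtr2 domain, with most Tbx15 UMIs, in each of these comparisons. The 7 calls therefore restate the concentration in that domain and are not separate results.

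Tbx18 was highest in the same domain but in the other of its clusters. The domain had 81.2 CPM in male cells and 95.5 CPM in female cells, log2 2.38 (2.26 to 2.49) and 2.32 (2.23 to 2.41) over the rest. The Gatm, Ezr and Pou3f3 cluster had 95.2 CPM in male cells and 133 CPM in female cells, against 52.4 and 58.7 CPM in the Vax2os, Sostdc1 and Sim1 cluster. Tbx15 and Tbx18 thus had opposite orders within the domain, in both libraries and beyond the counting intervals. Unlike Tbx15, Tbx18 also reached 33.3 CPM in male cells and 44.5 CPM in female cells in the Foxd1/Sall3 domain, 25.6 and 24.5 CPM in the Scx/Sox9 domain, and 25.0 and 25.8 CPM in the cluster led by Dlx6os1, Prss35 and Dio2. It was lowest in the Ogn/Foxf1 domain, at 3.50 and 3.84 CPM, which the counting intervals did not separate from the 3.90 and 4.94 CPM of the Aldh1a2/Tcf21 domain. Tbx18 was past the fold downwards in 4 domains: Ogn/Foxf1, Aldh1a2/Tcf21, Rprm/Pcdh10 and Msx1/Msx2, where 3.37%, 3.11%, 6.86% and 5.02% of genes were. In these comparisons too the rest included the Sim1/Agtr2 domain, where Tbx18 was highest.

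Tbx3 was lowest where Tbx15 was highest. It was highest itself in the Msx1/Msx2 domain, at 306 CPM in male cells and 311 CPM in female cells, log2 0.81 (0.77 to 0.85) and 0.78 (0.74 to 0.82) over the rest. The 4 clusters of that domain, named from the homeobox genes Msx1, Msx2, Dlx2 and Dlx5, held the 4 highest levels in both libraries, between 266 and 330 CPM in male cells and between 295 and 342 CPM in female cells. The highest of them in both was the cluster led by Vgll2, Dlx2 and Ndufa4l2. The lowest Tbx3 levels were those of the Vax2os, Sostdc1 and Sim1 cluster, at 98.4 CPM in male cells and 104 CPM in female cells. No cluster lacked Tbx3, and from the highest to the lowest it spanned 3.35-fold in male cells and 3.29-fold in female cells. For the Sim1/Agtr2 domain as a whole, log2 over the rest was -1.01 (-1.08 to -0.93) in male cells and -0.87 (-0.93 to -0.81) in female cells, past the fold in male cells alone. None of the 6 genes was past the fold downwards there in both libraries, where 3.75% of genes were.

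Tbx2 followed Tbx3 in part. It was high in the Msx1/Msx2 domain, at 132 CPM in male cells and 123 CPM in female cells, but higher still in the Rprm/Pcdh10 domain (147 and 149 CPM) and in the Mecom and Postn cluster (154 and 145 CPM). The intervals of these 2 highest clusters overlapped, so their order was not resolved. Tbx2 was low in the Foxd1/Sall3 domain (64.9 CPM in male cells and 54.6 CPM in female cells), in the Aldh1a2/Tcf21 domain (50.7 and 66.9 CPM) and in the Vax2os, Sostdc1 and Sim1 cluster (41.0 and 37.7 CPM). In the Foxd1/Sall3 domain the log2 ratio over the rest was -0.84 (-0.93 to -0.75) in male cells and -1.04 (-1.13 to -0.95) in female cells, past the fold in the female library only. In the Aldh1a2/Tcf21 domain it was -1.13 (-1.29 to -0.97) and -0.64 (-0.79 to -0.49), past the fold in the male library only. No test of the difference between the libraries could be made with 1 library each.

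Tbx4 was low in the same domains as Tbx2. In the Foxd1/Sall3 domain it stood at 28.6 CPM in male cells and 32.0 CPM in female cells, log2 -1.51 (-1.64 to -1.37) and -1.34 (-1.45 to -1.22) over the rest, past the fold together with 3.59% of genes. In the Aldh1a2/Tcf21 domain it stood at 33.1 and 35.5 CPM, log2 -1.17 (-1.38 to -0.98) and -1.06 (-1.27 to -0.86), past the fold together with 3.11% of genes. The highest levels were in the Dlx6os1, Prss35 and Dio2 cluster (121 CPM in male cells and 104 CPM in female cells) and in the Mecom and Postn cluster (121 and 113 CPM). Within the Msx1/Msx2 domain the clusters were uneven. The cluster led by Vegfd, Tfap2b and Mgp had 50.2 and 45.3 CPM, below each of the other 3 clusters, which ranged from 94.5 to 121 CPM in male cells and from 96.0 to 104 CPM in female cells.

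No domain ratio of Tbx5 was past the fold. It was highest in the Scx/Sox9 domain, which carries regulators of tendon and cartilage, at 115 CPM in male cells and 151 CPM in female cells (log2 0.48, 0.38 to 0.57, and 0.65, 0.57 to 0.74). It was lower in the Msx1/Msx2 domain than in the rest, at 69.9 and 66.4 CPM (log2 -0.37, -0.45 to -0.29, and -0.71, -0.79 to -0.63). The lowest level in each library was that of the Vegfd, Tfap2b and Mgp cluster, 37.1 CPM in male cells and 37.6 CPM in female cells, where Tbx4 was also below its neighbours. In the Foxd1/Sall3 and Aldh1a2/Tcf21 domains, where Tbx4 was low, Tbx5 stood at 77.0 and 101 CPM in male cells and at 97.7 and 102 CPM in female cells. The number of Tbx5 UMIs per Tbx4 UMI over all mesenchyme was 1.19 (1.15 to 1.23) in male cells and 1.39 (1.35 to 1.43) in female cells.

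The likeness of these profiles was described by the Pearson correlation of log2(CPM + 5) over the 13 clusters of both libraries, 26 points that share clusters and libraries and carry no p-value. The closest of the 15 pairs was Tbx2 with Tbx4, the neighbours on chromosome 11, at 0.88. Tbx15 with Tbx18 followed at 0.76 and Tbx2 with Tbx3 at 0.69. Tbx4 with Tbx5 reached 0.34, and Tbx3 with Tbx5, the neighbours on chromosome 5, -0.09. Tbx3 and Tbx15 had the most opposite profiles, at -0.80. Sequence relatives were therefore not always the genes with the closest profile.

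**Figure D2:**
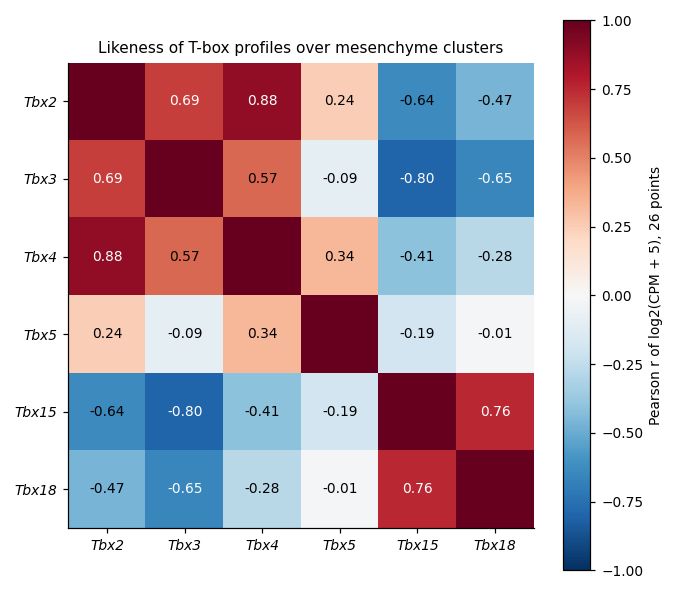
Pearson correlation of the levels of each pair of T-box genes, log2(CPM + 5), over 26 points (13 mesenchyme clusters in the male and the female library), from blue at -1 to red at 1. Tbx2 and Tbx4 are closest at 0.88, and Tbx3 and Tbx15 most opposed at -0.80.

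Among 10069 other genes with a summed mesenchyme count of at least 1000, the 3 most alike were named for each T-box gene by the same measure. For Tbx15 these were Nt5e (0.99), which encodes the ecto-5′-nucleotidase CD73, Pgbd5 (0.97) and the zinc finger repressor gene Zbtb18 (0.97). For Tbx3 they were Id3 (0.95), an inhibitor of bHLH factors that responds to BMP, the homeobox gene Prrx2 (0.93) and the repressor gene Snai1 (0.92). Tbx4 was most like the homeobox gene Alx4 (0.90), Mycl (0.86) and the kinase gene Pim1 (0.84). Tbx2 was most like the Hedgehog effector gene Gli3 (0.85), Bcas3 (0.85) and Runx2 (0.84), and Bcas3 is its annotated neighbour at a gap of 6492 bases. Tbx18 was most like the growth factor gene Fgf18 (0.85), Hoxc11 (0.80) and Apela (0.80), which encodes a ligand of the apelin receptor. Tbx5 was most like the lincRNA gene Gm43050 (0.83), which lies 747 bases from Tbx5 on the opposite strand, the plastin gene Pls3 (0.82) and the pyruvate dehydrogenase kinase gene Pdk3 (0.80).

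Co-detection asked whether 2 T-box genes were seen in the same cell more or less often than their shares give. Each mesenchyme cell was thinned to 2000 UMIs, since deeper cells show more genes. The count of cells with both genes was divided by the count that the product of the 2 shares gives within each domain, summed over domains. Clusters within a domain were pooled, so differences between clusters enter this ratio. The interval of this ratio is the exact interval of the share with both genes, divided by the share that the product gives. That product was taken as fixed although it comes from the same cells, so the interval is not exact for the ratio. At this depth Tbx3 was seen in 32.5% of mesenchyme cells of each library, Tbx2 in 18.9% of male and 18.3% of female cells, Tbx5 in 14.98% and 16.4%, and Tbx4 in 12.7% of each. Tbx18 was seen in 4.11% of male and 5.32% of female cells, and Tbx15 in 1.32% and 2.48%. In endothelial cells thinned alike, whose median depth before thinning was 12446 UMIs in male cells and 10266 UMIs in female cells, against 5069 and 5168 UMIs in mesenchyme cells, the shares were 8.16% and 3.17% for Tbx3, 2.55% and 3.97% for Tbx2, 2.55% and 3.17% for Tbx5 and 0.510% and 2.38% for Tbx4 and for Tbx18. No endothelial cell held Tbx15 after thinning, with exact upper bounds of 1.86% and 2.89%. At least 1 of the 6 genes was seen in 60.5% of male and 61.9% of female mesenchyme cells, before thinning in more (61.8% of male and 62.9% of female cells for Tbx3 alone).

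Tbx4 and Tbx5 were seen together in 335 male cells (2.05%, interval 1.84 to 2.28%) and 424 female cells (2.36%, 2.14 to 2.59%). That was 1.08 times (0.97 to 1.21) the product of shares in male cells and 1.12 times (1.01 to 1.23) in female cells. Put another way, Tbx5 was seen in 16.2% of male cells with Tbx4 and in 14.8% of those without it, and in 18.5% and 16.1% of female cells. The male interval included 1. The ratio depended on how detection was counted: with all UMIs of each cell it was 1.23 (1.18 to 1.28) in male cells and 1.24 (1.1997 to 1.28) in female cells, and with at least 2 UMIs of each gene 2.07 (1.86 to 2.30) and 2.16 (1.99 to 2.35), in cells that differ in depth. By domain the ratio lay between 0.74 (Ogn/Foxf1) and 1.31 (Rprm/Pcdh10) in the male library, with no interval that left out 1. In the female library it lay between 0.95 (Scx/Sox9) and 1.58 (Sim1/Agtr2), and the interval of the last, 1.23 to 2.00, was the 1 of 8 that left out 1, while the male ratio in that domain was 1.03 (0.70 to 1.46). In both libraries Tbx4 and Tbx5 were lower in the Vax2os, Sostdc1 and Sim1 cluster of that domain than in its other cluster. In female cells these levels were 33.6 and 52.2 CPM, against 78.7 and 120 CPM. Ratios within clusters were not tested.

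Tbx2 and Tbx3 were seen together in 1078 male cells (6.61%, 6.23 to 7.003%) and 1160 female cells (6.45%, 6.10 to 6.82%). The ratio to the product of shares was 1.03 in each library (0.97 to 1.09 in both), and with at least 2 UMIs of each gene in unthinned cells 1.35 (1.27 to 1.43) in male cells and 1.47 (1.40 to 1.55) in female cells. Tbx3 was seen in 35.0% of male cells with Tbx2 and 31.9% without, and in 35.2% and 31.9% of female cells. The share of cells with both was highest in the Msx1/Msx2 domain, 10.8% in male cells and 9.98% in female cells, and lowest in the Sim1/Agtr2 domain, 2.66% and 2.31%. The ratio was above 1 in 6 of 8 domains in the male library and in 5 in the female library, and the only interval that left out 1 was that of the Aldh1a2/Tcf21 domain in the female library, 1.45 (1.08 to 1.91).

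**Figure D3:**
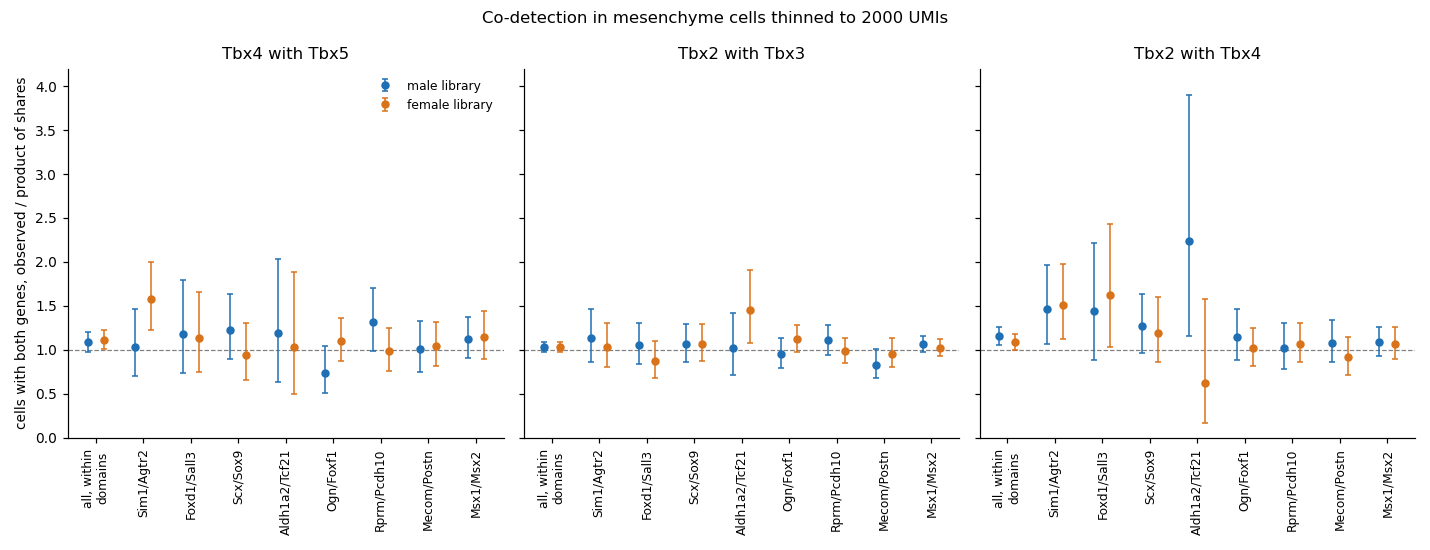
Cells with UMIs of both genes divided by the number that the product of the shares gives, for Tbx4 with Tbx5, Tbx2 with Tbx3 and Tbx2 with Tbx4, in all mesenchyme (summed over domains) and in each domain, male library in blue on the left and female library in orange on the right, with 95% intervals. Each interval is that of the share with both genes, divided by the product of shares taken as fixed. Most intervals include 1 (dashed line); all-mesenchyme ratios lie between 1.03 and 1.154.

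Among the other pairs, Tbx2 with Tbx4 had a ratio of 1.154 (1.06 to 1.26) in male cells and 1.08 (0.99 to 1.18) in female cells. Tbx3 with Tbx5 had 1.095 (1.02 to 1.17) and 1.07 (1.01 to 1.14). Tbx15 with Tbx18 was compared both ways. Against the shares over all mesenchyme the pair was 2.82 times the product in male cells and 2.78 times in female cells, but within domains 1.03 (0.67 to 1.52) and 1.06 (0.82 to 1.35). The pair was rare, with 25 male and 66 female cells. Tbx2 with Tbx15 was below the product within domains, at 0.63 (0.38 to 0.98) in male cells and 0.72 (0.51 to 0.98) in female cells, from 19 and 39 cells. The Sim1/Agtr2 domain, with most Tbx15 UMIs, pools clusters of opposite order for this pair. Its Vax2os, Sostdc1 and Sim1 cluster had more Tbx15 but less Tbx2 (41.0 and 37.7 CPM) than its other cluster (82.8 and 84.8 CPM). This pair was not tested within clusters. Of Tbx2, Tbx3, Tbx4 and Tbx5, a single gene was seen in 39.7% of male and 39.5% of female cells, and all 4 in 30 male and 28 female cells.

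Between the sexes, Tbx15, Tbx18 and Tbx5 were lower in the male mesenchyme. The log2 ratio of male over female was -0.98 (-1.11 to -0.86) for Tbx15, -0.38 (-0.45 to -0.31) for Tbx18 and -0.23 (-0.28 to -0.19) for Tbx5. For Tbx2 it was 0.06 (0.02 to 0.10), for Tbx3 -0.01 (-0.03 to 0.02) and for Tbx4 -0.01 (-0.05 to 0.04). Of the 6 genes, 2 were past a log2 size of 0.25, both lower in the male library, against 13.9% of all 13389 genes in either direction, 5.57% lower and 8.28% higher in male cells. Over 13387 genes with counts in both libraries the median ratio was -0.02 and the central 90% lay between -0.26 and 0.34. Fewer Tbx15 cells and less Tbx15 RNA per cell both enter this ratio. Cells of the Vax2os, Sostdc1 and Sim1 cluster, where Tbx15 was highest, made up 4.05% of male and 7.66% of female mesenchyme cells, and sex and pool cannot be told apart with 1 pool per sex.

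Within that cluster the Tbx15 ratio was smaller, -0.57 (-0.75 to -0.40), and in the Gatm, Ezr and Pou3f3 cluster it was -0.42 (-0.66 to -0.18). For the Sim1/Agtr2 domain it was -0.82 (-0.96 to -0.68). With the domains weighted alike in both libraries the mesenchyme ratio was -0.75, and without the Sim1/Agtr2 domain -0.42 (-0.72 to -0.13), an alternative chosen after seeing the data. The shares of clusters within a domain were not weighted alike. In the Sim1/Agtr2 domain the Vax2os, Sostdc1 and Sim1 cluster held 661 of 2145 male and 1378 of 2857 female cells. Tbx15 was lower in the male library in 11 of 13 clusters and higher in the other 2, and 3 of the 13 intervals lay below 0 and none above. In the cluster led by Nefm, Nefl and Lbx2 it was -0.76 (-1.35 to -0.20), from 38 male and 91 female UMIs. With at most 5% mitochondrial UMIs, a limit that most cells fall outside, the Tbx15 ratio was -0.42 (-0.85 to -0.01).

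**Figure D4:**
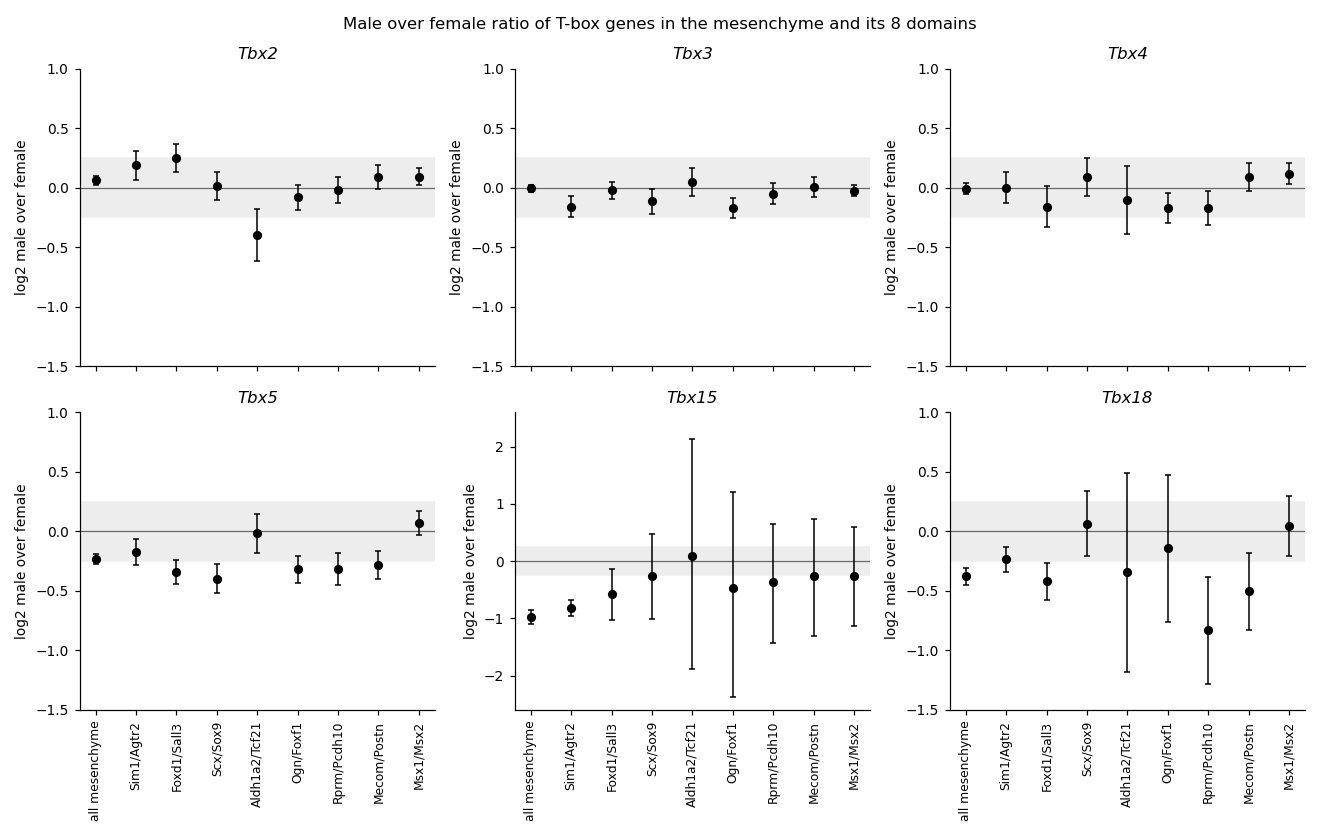
Male over female log2 ratio of each T-box gene in all mesenchyme and in its 8 domains, with exact 95% intervals for counting error; the grey band spans -0.25 to 0.25, and the Tbx15 panel has a wider axis. Tbx5 lies below 0 in 7 of 8 domains, and Tbx2 lies above 0 in Foxd1/Sall3 (0.25) and below 0 in Aldh1a2/Tcf21 (-0.40).

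Tbx5 was lower in the male library in 7 of 8 domains, and 6 of these intervals lay below 0. In the Scx/Sox9 domain the log2 ratio was -0.40 (-0.52 to -0.28), in the Foxd1/Sall3 domain -0.34 (-0.44 to -0.24) and in the Rprm/Pcdh10 domain -0.32 (-0.45 to -0.18). The exception was the Msx1/Msx2 domain, at 0.07 (-0.03 to 0.17). Tbx18 was lower in the male library in 6 of 8 domains, with 4 intervals below 0, from -0.23 (-0.34 to -0.13) in the Sim1/Agtr2 domain to -0.83 (-1.28 to -0.38) in the Rprm/Pcdh10 domain, where it had 61 male and 144 female UMIs. The 2 clusters of the Sim1/Agtr2 domain differed. The Tbx18 ratio was -0.49 (-0.61 to -0.37) in the Gatm, Ezr and Pou3f3 cluster and -0.16 (-0.38 to 0.05) in the Vax2os, Sostdc1 and Sim1 cluster. With at most 5% mitochondrial UMIs, a limit that most cells fall outside, the Tbx18 ratio over the mesenchyme was 0.10 (-0.15 to 0.35). The Tbx5 ratio was then -0.08 (-0.24 to 0.08). Both intervals include 0, so neither direction was resolved in the cells left. For Tbx2, Tbx3 and Tbx4 the domain ratios lay on both sides of 0.

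Outside the mesenchyme, levels were read beside the mesenchyme markers in the same cells, 8 genes such as Col1a1 and Prrx1. Male erythroid cells had 44.4% of the mesenchyme marker level and female ones 49.2%, and their T-box levels lay between 31.0% (Tbx18) and 56.2% (Tbx5) of those of mesenchyme in male cells and between 43.3% (Tbx18) and 64.3% (Tbx4) in female cells. Endothelial cells had 8.61% and 17.3% of the marker level, and T-box levels between 5.76% and 14.97% in male cells and between 9.84% and 23.0% in female cells. In these cells T-box genes and mesenchyme markers were low together. The part of mesenchyme RNA in these values was not tested.

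**Figure D5:**
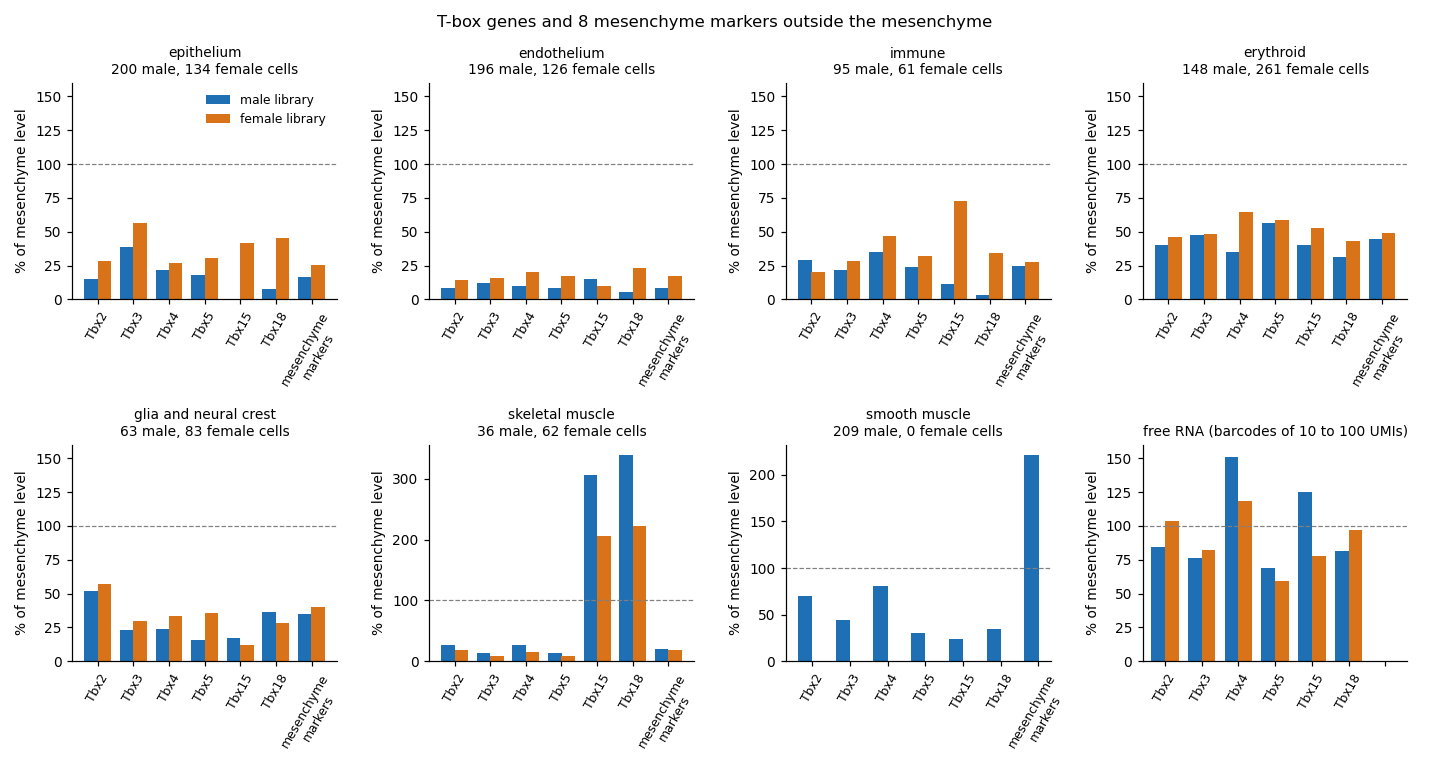
Level of each T-box gene and summed level of 8 mesenchyme markers in 7 other cell classes, as percent of the level in mesenchyme cells of the same library (dashed line at 100), and T-box levels in free RNA; male library in blue on the left and female library in orange on the right, bars from 0, panels with their own axis. Tbx15 and Tbx18 exceed the mesenchyme level in skeletal muscle (307 and 339% in the male library), while Tbx3 in epithelium stands above the marker bars.

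Skeletal muscle cells, 36 male and 62 female, named from Myod1, Myog and other markers, had more Tbx15 and Tbx18 than the mesenchyme as a whole. Tbx18 stood at 86.0 CPM (65.8 to 110.5) in male cells and 73.1 CPM (58.4 to 90.4) in female cells, 339% and 222% of its mesenchyme level. Tbx15 stood at 24.0 CPM (14.0 to 38.4) and 31.8 CPM (22.4 to 43.9), 307% and 206%. The mesenchyme markers were at 20.8% and 19.1%, and Tbx2, Tbx3, Tbx4 and Tbx5 between 13.2% and 27.4% in male cells and between 7.91% and 18.5% in female cells. Tbx15 and Tbx18 in muscle cells were thus above the mesenchyme as a whole, while the mesenchyme markers were low. They were not above every mesenchyme domain. The Sim1/Agtr2 domain had Tbx15 at 41.7 CPM in male cells and 73.6 CPM in female cells, and Tbx18 at 81.2 and 95.5 CPM. The male class lies under the minimum of 50 cells used for the other classes and was kept for its levels after seeing the data. With the highest doublet scores removed, Tbx15 in muscle was 22.9 CPM (9.22 to 47.2) in male cells and 24.9 CPM (15.8 to 37.3) in female cells. Tbx18 was then 104.8 CPM (71.7 to 148) and 75.7 CPM (59.0 to 95.7). The male intervals were wider because few male muscle cells were left. They were too few even for the lower minimum set for this class, so these male levels rest on little data.

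Epithelial cells, 200 male and 134 female, had Tbx3 at 80.2 CPM (69.6 to 91.9) and 116 CPM (99.0 to 136), 39.0% and 56.2% of the mesenchyme level, with the mesenchyme markers at 16.2% and 25.7%. The number of Tbx3 UMIs per Tbx2 UMI was 5.05 (3.60 to 7.24) in male cells and 4.05 (2.85 to 5.88) in female cells, against 1.93 (1.88 to 1.97) and 2.02 (1.98 to 2.07) in mesenchyme and 1.75 (1.32 to 2.32) and 1.60 (1.12 to 2.30) in free RNA. By mesenchyme domain this number ran up to 3.89 (3.44 to 4.40) in the male Aldh1a2/Tcf21 domain and 3.24 (3.03 to 3.47) in the female Foxd1/Sall3 domain, both within the epithelial interval of their library. The part of mesenchyme RNA in epithelial Tbx3 was not tested. Divided further, 34 male and 42 female cells were led by the mesenchyme genes Shox2, Osr2, Col1a2 and Prrx1 and had Tbx3 at 177 and 159 CPM. Without them Tbx3 stood at 56.7 CPM in male and 90.4 CPM in female epithelium, by a division chosen after seeing the data. The Tbx3 per Tbx2 numbers of epithelium above include these mesenchyme-led cells. They held 29 of 41 male and 35 of 40 female Tbx2 UMIs, but 89 of 207 and 83 of 162 Tbx3 UMIs. The other epithelial cells thus had more Tbx3 per Tbx2 than the numbers above, and no interval was made for them.

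Of the remaining epithelial cells, 2 groups held most, and both had Tbx3 with little of its relatives. The group led by Atp1b1, Shh and Sox2, genes of which Shh encodes the signal made by urethral epithelium, had Tbx3 at 72.4 CPM (52.6 to 97.3) in 38 male cells and 125 CPM (81.9 to 184) in 19 female cells. Tbx2, Tbx4 and Tbx5 there were at 9.88, 9.88 and 8.23 CPM in the male library, and at 0, 0 and 4.82 CPM in the female library, where 3 counts would be 14.5 CPM and the exact upper bound of a count of 0 is 17.8 CPM. The group led by Sostdc1, Fst and Wnt3, apart from a haemoglobin gene, had Tbx3 at 50.2 CPM (38.6 to 64.3) in 95 male cells and 90.4 CPM (66.0 to 121) in 38 female cells. The last 2 groups were small, with 5 male and 6 female Tbx3 UMIs in 15 and 11 cells led by Gabrp, Krtdap and Krt17, and 6 and 2 Tbx3 UMIs in 18 and 24 cells led by AY036118, Hbb-y and Bfsp2. Tbx15 had 0 UMIs in male epithelium, where 3 counts would be 1.16 CPM and the exact upper bound is 1.43 CPM.

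Glia and neural crest cells, 63 male and 83 female, had more Tbx2 per Tbx3 than the mesenchyme as a whole. Tbx2 stood at 55.5 CPM (40.0 to 75.0) and 58.2 CPM (44.7 to 74.5), 51.9% and 56.9% of the mesenchyme level, with the markers at 34.6% and 40.1% and Tbx3 at 23.1% and 29.9%. The number of Tbx2 UMIs per Tbx3 UMI was 1.17 (0.730 to 1.87) in male cells and 0.9403 (0.656 to 1.35) in female cells, against 0.519 and 0.495 in all mesenchyme and 0.572 (0.432 to 0.755) and 0.624 (0.434 to 0.889) in free RNA. The free RNA intervals overlapped those of the glia, and the Scx/Sox9 domain of the mesenchyme, at 0.772 (0.713 to 0.835) and 0.706 (0.655 to 0.761), lay within them. A smooth muscle cluster, led by Tagln, Acta2 and Actg2 and also by the cartilage collagen genes Col9a3 and Col9a1, held 209 male cells and no female cell, so that library and cell type cannot be told apart in it. It had Tbx4 at 80.8% and Tbx2 at 69.5% of the mesenchyme level, and Tbx5 at 30.3%, with the mesenchyme markers at 221%. Immune cells, also led by the mast cell genes Cma1 and Cpa3, had between 1 and 49 UMIs of each gene in male cells and between 8 and 42 in female cells.

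Other T-box genes were few in the mesenchyme. Of 11 further members found in the feature list, 3 reached a summed count of 100. Mga, which encodes a T-box and bHLH protein that pairs with Max, stood at 63.2 CPM in male cells and 69.2 CPM in female cells and was even across domains. Tbx20, known from the heart, was at 4.26 and 2.98 CPM in the Msx1/Msx2 domain (log2 4.73 and 3.82 over the rest), and Tbx1, known from the pharynx, at 1.44 and 1.73 CPM in the Sim1/Agtr2 domain (2.59 and 2.25). The median male over female ratio of the 3 genes was -0.13, the value of Mga, beside -0.02 for all genes. The other 2 lay on opposite sides, Tbx20 at 0.60 (0.18 to 1.02) and Tbx1 at -0.56 (-1.15 to 0.01).

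Known regulators and partners of these factors were all measured, and 6 of 13 were past the fold in a domain, against 12.5% of all genes. Pitx1, a hindlimb regulator upstream of Tbx4, was highest in the Msx1/Msx2 domain, at 265 CPM in male cells and 241 CPM in female cells (log2 1.75 and 1.63). Sall4, a partner of Tbx5, was highest there too (26.04 and 29.9 CPM, log2 1.91 and 1.89), while Tbx5 was lower in that domain than elsewhere. Six2 (69.3 and 76.6 CPM, log2 1.36 and 1.58) was highest in the Foxd1/Sall3 domain, where Tbx4 was low. The Groucho-type genes Tle1, Tle2, Tle3 and Tle4 stayed under the fold, and Tle1 was highest in the Sim1/Agtr2 domain (103 and 120.2 CPM, log2 0.53 and 0.68). The 13 genes had a median male over female ratio of -0.08.

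Of 8 known targets, 4 were measured and all 4 were past the fold in a domain, against 12.5% of all genes. Ndrg1, a stress-responsive gene, was highest in the Sim1/Agtr2 domain, at 16.0 CPM in male cells and 24.3 CPM in female cells (log2 1.98 and 2.70). So was Cdkn1a, the cell cycle inhibitor p21 that Tbx2 and Tbx3 can repress, at 9.44 and 10.2 CPM (log2 1.88 and 1.95), in the domain where Tbx3 was lowest. Gja1, a connexin gene repressed by Tbx2 in other tissues, was highest in the Msx1/Msx2 domain, at 208 and 195 CPM (log2 1.22 and 1.06), where Tbx2 and Tbx3 were high. Fgf10, a target of Tbx4 and Tbx5 in the limb and lung, was highest in the Ogn/Foxf1 domain, at 19.1 and 19.6 CPM (log2 1.19 and 1.13). The median male over female ratio of the 4 genes was -0.13.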

How the data were processed

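The authors deposited UMI counts per gene and barcode, whole numbers without normalization, for every barcode of the kit; per the submitters' processing notes they were made with Cell Ranger 3.1 on mm10; the annotation version is not given in the sources used here. Other deposited files hold gene and barcode names. The genes, lists and tests were chosen with earlier results of these data known.

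Counts were clustered with scanpy 1.11.5 and python-igraph 0.11.9 (2000 variable genes per selection, 30 components, 15 neighbours, Leiden resolution 1 for all cells and 0.8 for mesenchyme, without T-box genes, and without cell cycle genes in mesenchyme). A class other than mesenchyme needed a mean log2 fold of 2 over its markers, and a domain 0.5. Clusters that no other class list named were called mesenchyme when enough mesenchyme markers were expressed, without a fold over other cells. No doublets were removed; Scrublet marked 9.62% of male and 14.6% of female cells. Ratios of counts have exact conditional intervals, shares Clopper-Pearson and levels Poisson intervals, at 95%. Co-detection ratios have the Clopper-Pearson interval of the share with both genes, divided by an expected share taken as fixed. The scripts were tested on simulated data. Named genes were the 6 genes, the 3 most alike of each, and from each list up to 4 measured genes, those with the largest domain ratio; the Tle genes and the epithelial groups were added with their values in view. Some genes and sequences that these rules name are not reported here. Levels of genes outside mesenchyme rest on fewer UMIs, 709324 in male skeletal muscle against 98527734 in male mesenchyme. Alternatives varied the limits on UMIs and mitochondrial share, doublets, clustering, thinning, scaling (TMM in edgeR 4.0.16), count minimum and the expected share.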

Additional observations from a re-analysis of the deposited data

Results flagged for a closer look

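For Tbx2 and Tbx4 the male over female ratio lay on opposite sides of 0 in different mesenchyme domains, each with a counting interval that left out 0. Tbx2 was higher in the male library in the Foxd1/Sall3 domain (log2 0.25, 0.13 to 0.37), the Sim1/Agtr2 domain (0.19, 0.07 to 0.31) and the Msx1/Msx2 domain (0.093, 0.02 to 0.17), but lower in the Aldh1a2/Tcf21 domain (-0.40, -0.62 to -0.18). Tbx4 was higher in the male library in the Msx1/Msx2 domain (0.12, 0.03 to 0.21) and lower in the Ogn/Foxf1 (-0.17, -0.29 to -0.05) and Rprm/Pcdh10 domains (-0.17, -0.31 to -0.03). The difference between domains was not tested, since each sex had 1 library.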

How the results depend on the processing

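Of 72 alternative values for the counts and ratios that answer a comparison, 60 stayed within the spread or within 1.5 times, and 12 moved. Of 208 values for single genes, 133 stayed within the spread, 74 moved and 1 changed sign. Counting all UMIs of each cell gave observed over expected ratios of 1.23 (1.18 to 1.28, male) and 1.24 (1.1997 to 1.28, female) for Tbx4 with Tbx5 and 1.09 (1.07 to 1.12, female) for Tbx2 with Tbx3. At least 2 UMIs of each gene gave 2.07 (1.86 to 2.30) and 2.16 (1.99 to 2.35), and for Tbx2 with Tbx3 1.35 (1.27 to 1.43) and 1.47 (1.40 to 1.55), the male library first; unthinned cells differ in depth. With at most 5% mitochondrial UMIs, a limit that most cells fall outside, the female ratios were 0.93 (0.58 to 1.40) and 1.14 (0.88 to 1.44). At that limit 1 gene instead of 2 was past 0.25 between the sexes. In a domain 3 instead of 2 were past the fold, with Tbx3 in the Msx1/Msx2 domain. The Tbx18 ratio between the sexes was 0.10 there, with an interval of -0.15 to 0.35 that includes 0. The share of all genes past 0.25 was 22.5% with a minimum of 20 counts and 8.29% with 500. The Tbx15 ratio between the sexes stayed below 0 in all 10 alternatives (-0.98 to -0.42), and the Tbx15 ratio of the Sim1/Agtr2 domain stayed between 3.21 and 4.79 in the male and 3.52 and 5.15 in the female library in 10. With domains from marker UMIs alone, Tbx18 in the Sim1/Agtr2 domain was 1.83 (male) and 1.33 (female), and Tbx4 in the Foxd1/Sall3 domain -2.21 and -2.12; over all alternatives Tbx18 lay between 1.83 and 2.55 and between 1.33 and 2.53, and Tbx4 between -2.21 and -1.41 and between -2.12 and -1.36. At resolution 0.4 no Foxd1/Sall3 domain was found. The causes were not tested. No paired analysis was possible because each sex has 1 library and no test was made. Depth limits rare genes most: Tbx15 outside its domain rests on 1 to 119 UMIs per cluster or domain.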
